A study of Mus musculus with 6 samples.

Results

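The 40 genes described here were a given list of the genes that lie near Trp53 on mouse chromosome 11, with Trp53 itself left out, and all 40 were found by their symbols among the 47719 genes of the deposited tables. They spanned 714.6 kb of GRCm38, from Chd3 (start 69343273) to Asgr1 (end 70057894). Trp53 lies inside this span at 69580359 to 69591873, with 6 of the genes on the side of lower positions and 34 on the side of higher positions. RNA had been sequenced from whole prostates of 6 mice of the strain B6.129S4-Trp53tm3.1Tyj/J, of which wildtype mice 39 and 41 (Trp53+/+) carried 0 R270H alleles, heterozygous mice 37 and 40 (Trp53R270H/+) carried 1, and homozygous mice 47 and 49 (Trp53R270H/R270H) carried 2. The numbers are those of the animals. Every mouse, wildtype ones included, had been irradiated over the whole body with 5 Gy at an age of about 3 months and the prostate taken after 6 h. No comparison with unirradiated tissue was made. R270H is carried in the germline, so that every cell type in the gland carries it, and the values are averages over all cells of a dissected prostate. In such bulk samples, fewer cells of a type and less RNA per cell cannot be told apart.

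A targeted allele such as R270H is made in embryonic stem cells of one strain and bred into another, and DNA next to it is inherited along with it. Genes close to a targeted locus can therefore differ between mutant and wildtype mice through sequence that came from the donor strain, in the number of mutant alleles. The neighbourhood of Trp53 is dense with genes of unrelated function. It includes Polr2a, which encodes the largest subunit of RNA polymerase II, Eif4a1 and Eif5a, which encode translation factors, and the cytokine genes Tnfsf12 (TWEAK) and Tnfsf13 (APRIL). The comparison asked whether the 40 neighbours differed between the 3 genotypes in the order of allele number, and more often than other genes. The tables hold no sequence variants, so which mice carried DNA of the donor strain at which neighbour was not analysed here, and linked DNA and the R270H allele itself cannot be told apart.

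Expression was given by the authors as FPKM, the number of fragments scaled by transcript length and by the number mapped. Taking the median of low values inside a preset window as 1 fragment, 1 FPKM over 1 kb of transcript was worth about 25.0 to 33.1 fragments. The window limits what this estimate could be, so it is only a rough guide. A short gene at a low FPKM rested on few fragments. The FPKM of Trp53 lay between 17.3 and 21.4 in the 6 mice and did not separate the genotypes. The labels were checked with 12 known p53 target genes, whose summed FPKM was 790 and 758 in wildtype mice, 396 and 396 in heterozygotes and 194 and 186 in homozygotes. Some libraries stood apart in tissue markers. Summed over 10 genes of prostate luminal epithelium, FPKM was 21939 and 23845 in wildtype mice and 17888 and 15490 in heterozygotes. It was 1506 and 13940 in homozygotes, so the sums fell in allele order and mouse 47 lay far below the rest. Of the 10 genes, 4 were lower in homozygous than in wildtype mice at an unadjusted limma p-value under 0.05 (9.32% of all tested genes). Summed over 7 genes of the seminal vesicle, a gland that adjoins the prostate, FPKM was 3488 in wildtype mouse 39 and 35187 to 59466 in the others. Counts are given below also without a mouse where leaving it out moved them by over 1.5 times.

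Of the 40 neighbours, 34 had a mean FPKM of at least 1 and were tested among 13818 genes with limma on log2(FPKM + 0.1). The filter used the mean over all mice, so a gene could pass through its high group alone. Shbg, Dnah2, Efnb3, Acap1, Sox15 and Asgr1 did not reach it. None of the 34 had a Benjamini-Hochberg adjusted p-value under 0.05 per R270H allele, where 0.355% of all tested genes had one. At an unadjusted p-value under 0.05, 7 of the 34 passed per allele (20.6%), beside 19.6% of all tested genes. Of these, Slc2a4, Atp1b2 and Dlg4 were higher with more R270H alleles (9.15% of all tested genes) and Kctd11, Tnfsf12, Tnfsf13 and Mpdu1 were lower (10.5% of all tested genes). The neighbours were thus about as often past this threshold as the rest of the genome. The number was 3 without wildtype mouse 41 and 4 without homozygous mouse 47, and all tested genes then passed at 14.7% and 13.8%.

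**Figure D1:**
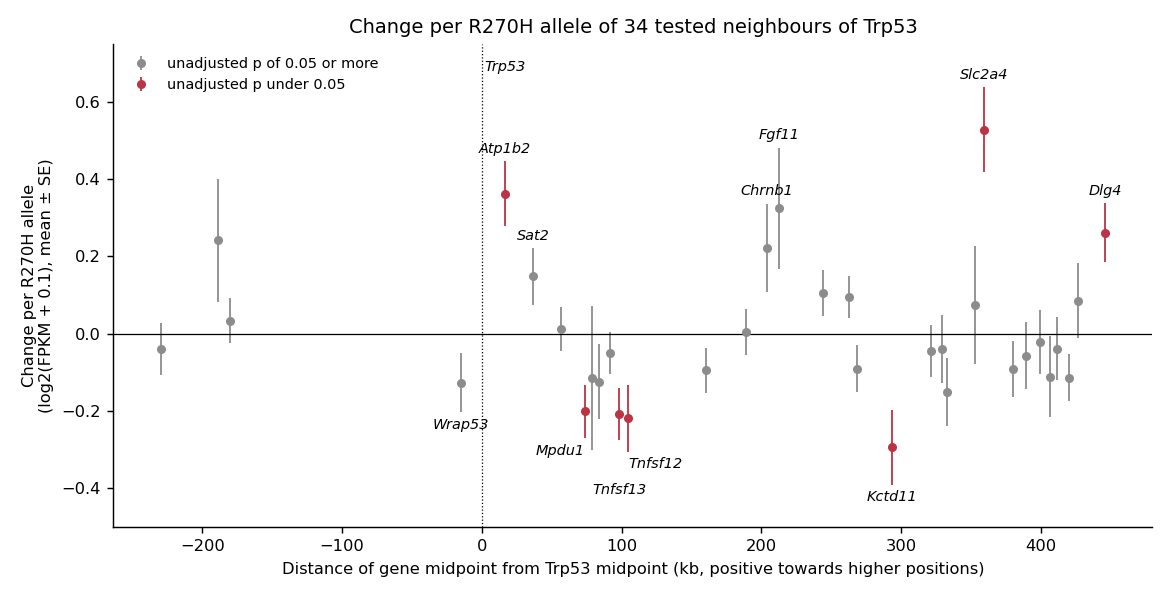
Change per R270H allele on the log2(FPKM + 0.1) scale (limma estimate, bars are standard errors, 6 mice) for the 34 tested neighbours, against the distance of each gene's midpoint from that of Trp53 in kb. Neighbours with an unadjusted p-value under 0.05 are red; they lie on both sides of 0 and among neighbours near 0, with Slc2a4 highest at 0.53 and Kctd11 lowest at -0.29.

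The comparisons of genotypes gave the same picture. The moderated F-test of the 3 genotypes had an unadjusted p-value under 0.05 for 4 of the 34 neighbours, namely Slc2a4, Atp1b2, Kctd11 and Tnfsf12, beside 11.5% of all tested genes. After adjustment it called 0 neighbours, beside 0.101% of all tested genes, and the lowest adjusted p-value was that of Slc2a4 (0.240 from limma). In heterozygous against wildtype mice, 3 neighbours passed the unadjusted threshold (Slc2a4 and Atp1b2 higher, Kctd11 lower), beside 6.87% of all tested genes (4.66% higher and 2.21% lower). In homozygous against wildtype mice 7 passed, the same 7 genes as per allele, beside 18.0% of all tested genes (8.65% higher and 9.32% lower). With 2 mice in each genotype, the change per allele is set by wildtype and homozygous mice alone, so this is the same difference again. Heterozygous mice enter only the standard error of the change per allele, which therefore does not test allele order by itself. In homozygous against heterozygous mice only Tnfsf12 passed, lower in homozygous mice, beside 6.39% of all tested genes (1.97% higher and 4.42% lower). None of these contrasts gave an adjusted p-value under 0.05 for a neighbour, beside 0%, 0.384% and 0.0145% of all tested genes in the same order. These comparisons share mice and are not independent of each other. Leaving out a mouse moved the number of neighbours, and the share of all tested genes is given beside each. In homozygous against wildtype mice, 2 neighbours passed without wildtype mouse 41 (13.9% of all tested genes) and 4 without homozygous mouse 47 (11.7%). In heterozygous against wildtype mice, 1 passed without wildtype mouse 39 (5.61%), heterozygous mouse 37 (3.95%) or heterozygous mouse 40 (3.58%). In the F-test, 1 passed without wildtype mouse 39 (8.54%), 2 without wildtype mouse 41 (10.2%) or heterozygous mouse 37 (7.29%), and 7 without homozygous mouse 49 (15.2%). In homozygous against heterozygous mice, 0 passed without heterozygous mouse 37 (1.29%) and 2 without heterozygous mouse 40 (6.78%), homozygous mouse 47 (3.65%) or homozygous mouse 49 (12.2%).

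A stricter description asks that the values of all 6 mice follow the number of R270H alleles with no overlap between genotypes. This held for 3 of the 34 tested neighbours (8.82%), Atp1b2 and Fgf11 rising and Tnfsf13 falling, beside 8.83% of all tested genes. Rising order was found in 3.85% and falling order in 4.98% of all tested genes. Without 1 mouse an order is easier to reach. It then held for 9 neighbours without mouse 39 (17.3% of all tested genes), 8 without mouse 37 (21.6%) and 7 without mouse 47 (14.9%). For 6 neighbours it held without mouse 49 (17.0%), for 5 without mouse 40 (14.5%) and for 3 without mouse 41 (14.2%). No test was made of these counts. Over the 34, the median change per allele was -0.04 on the log2 scale, with 14 estimates above and 20 below 0, and the median over all tested genes was -0.02. The median size of the change regardless of sign was 0.11 in the neighbours and 0.12 in all tested genes.

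The genes nearest to Trp53 are Wrap53, whose start lies 103 bases from that of Trp53 on the opposite strand, and Atp1b2, which ends 7.86 kb beyond the other end of Trp53. Wrap53 encodes a protein that brings telomerase RNA to Cajal bodies. The FPKM of Wrap53 was 5.24 and 5.99 in wildtype mice, 5.86 and 4.75 in heterozygotes and 4.67 and 4.70 in homozygotes. Both homozygous values lay below all the others, by a margin smaller than the distance between the heterozygous mice. Its change per allele was -0.13 on the log2 scale (95% interval -0.31 to 0.05, adjusted p = 0.403 from limma). Atp1b2 encodes a beta subunit of the sodium pump. The FPKM of Atp1b2 was 4.91 and 6.36 in wildtype mice, 7.28 and 8.45 in heterozygotes and 9.81 and 8.83 in homozygotes, without overlap. Its mean was 1.65-fold higher in homozygous than in wildtype mice, and its change per allele was 0.36 on the log2 scale (standard error 0.08, unadjusted p = 0.00378, adjusted p = 0.129 from limma). Under the alternatives its adjusted p-value per allele lay between 0.112 and 0.296.

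The other 4 of the 6 nearest neighbours were low or showed overlapping genotypes. Sat2, a relative of the polyamine acetyltransferase gene, had an FPKM of 4.37 and 4.83 in wildtype mice, 5.20 and 4.76 in heterozygotes and 6.18 and 5.19 in homozygotes. Its change per allele was 0.15 on the log2 scale (95% interval -0.03 to 0.32, adjusted p = 0.313 from limma). Efnb3, which encodes an ephrin ligand, had an FPKM of 0.431 and 0.571 in wildtype mice, 0.715 and 0.678 in heterozygotes and 0.616 and 0.713 in homozygotes. Wildtype mice held both of its lowest values, and the mutant genotypes overlapped. Dnah2, which encodes an axonemal dynein heavy chain of motile cilia, lay between 0.0630 and 0.228 FPKM. Shbg, which encodes the sex hormone binding globulin, was listed at 0 in all 6 mice.

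**Figure D2:**
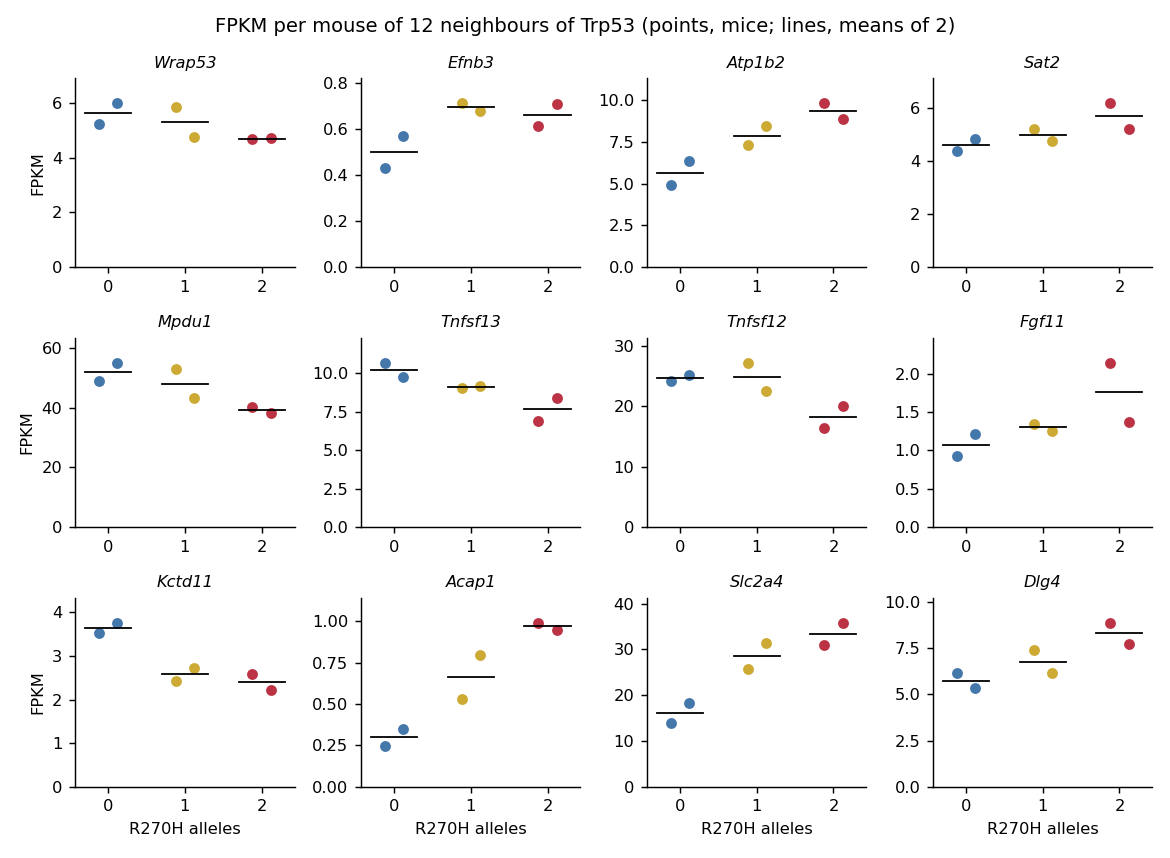
FPKM (vertical axes, starting at 0) against the number of R270H alleles for 12 neighbours, 1 point per mouse and a line at the mean of the 2 mice of a genotype. Atp1b2, Fgf11, Acap1 and Tnfsf13 show no overlap in allele order, while the wildtype mice stand apart from both mutant genotypes in Slc2a4 and Kctd11.

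Among channels, transporters and synaptic genes, 3 of 6 tested neighbours passed the unadjusted threshold per allele, all of them higher, beside 19.6% of all tested genes (9.15% higher); with 6 genes, nothing is read from this count about the group. Slc2a4 encodes GLUT4, the insulin-regulated glucose transporter of skeletal muscle and fat. The FPKM of Slc2a4 was 13.9 and 18.3 in wildtype mice, 25.8 and 31.5 in heterozygotes and 30.9 and 35.9 in homozygotes. All 4 mutant mice were above both wildtype mice, and the heterozygous and homozygous values overlapped. Its mean was 2.07-fold higher in homozygous than in wildtype mice, and its log2 difference was 1.06 in homozygous (adjusted p = 0.110 from limma, standard error 0.19) and 0.83 in heterozygous mice (adjusted p = 0.366 from limma). Dlg4 encodes PSD-95, a scaffold of synapses. The FPKM of Dlg4 was 6.16 and 5.32 in wildtype mice, 7.39 and 6.14 in heterozygotes and 8.87 and 7.71 in homozygotes, with overlap of wildtype and heterozygous mice. Its change per allele was 0.26 on the log2 scale (adjusted p = 0.154 from limma, standard error 0.08). Chrnb1, which encodes the beta subunit of the muscle acetylcholine receptor, had an FPKM of 2.41 and 2.46 in wildtype mice, 3.52 and 3.35 in heterozygotes and 2.82 and 3.96 in homozygotes. Its values in mutant mice were all above those of wildtype mice, and its change per allele was 0.22 on the log2 scale (95% interval -0.05 to 0.49, adjusted p = 0.328 from limma). Fgf11, a member of the intracellular fibroblast growth factor homologues, had an FPKM of 0.921 and 1.22 in wildtype mice, 1.34 and 1.26 in heterozygotes and 2.14 and 1.37 in homozygotes. The order of Fgf11 was free of overlap, but mouse 49 lay only just above mouse 37, and the change per allele of 0.32 on the log2 scale had an adjusted p of 0.304 from limma.

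Markers of skeletal muscle moved along with these genes. Of 15 skeletal muscle genes, 15 were higher in homozygous than in wildtype mice at an unadjusted p-value under 0.05, beside 8.65% of all tested genes, and 15 were higher in heterozygous mice, beside 4.66%. None of the 15 had an adjusted p-value under 0.05 per allele. Their summed FPKM was 1997 and 2870 in wildtype mice, 5493 and 5799 in heterozygotes and 6811 and 5887 in homozygotes, the same allele order as in Atp1b2. Summed over 9 adipocyte genes, FPKM was 500 and 346 in wildtype mice, 424 and 538 in heterozygotes and 739 and 667 in homozygotes. Of these 9, 4 were higher in homozygous than in wildtype mice at an unadjusted p-value under 0.05, beside 8.65% of all tested genes. In heterozygous mice 1 was higher, beside 4.66%. The part of muscle or fat tissue in the values of Slc2a4, Atp1b2, Dlg4, Chrnb1 and Fgf11 was not tested.

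**Figure D3:**
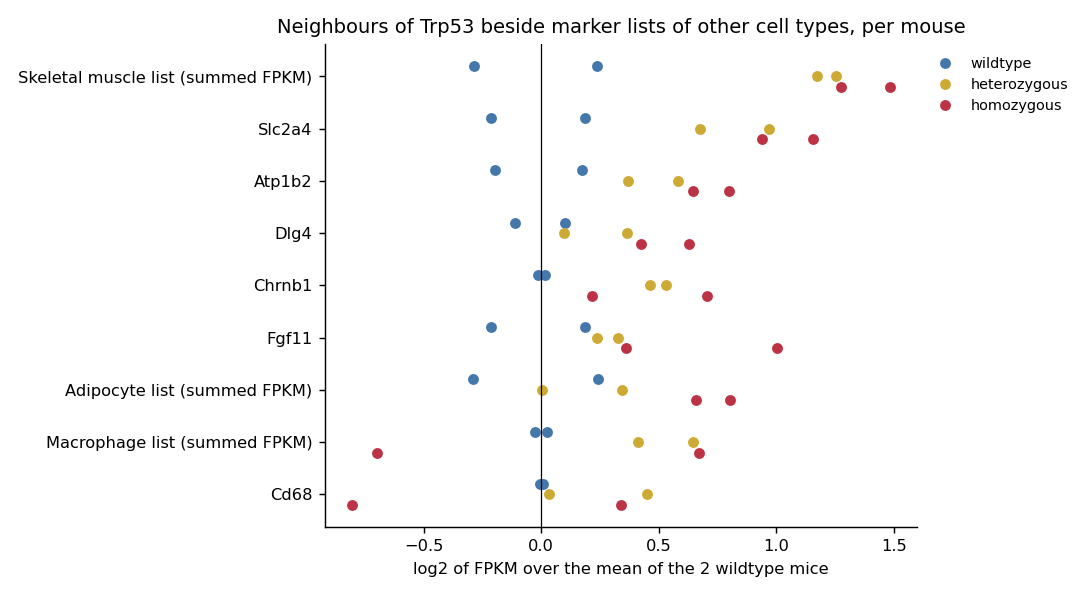
Log2 of FPKM over the mean of the 2 wildtype mice (horizontal axis) for 6 neighbours of Trp53 and for the summed FPKM of 3 marker lists, 1 point per mouse coloured by genotype. The mutant mice lie to the right of the wildtype mice for the skeletal muscle list, Slc2a4, Atp1b2 and Chrnb1, while Cd68 and the macrophage list share a low value in homozygous mouse 47.

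The 4 neighbours below the unadjusted threshold with lower values per allele were Tnfsf13, Tnfsf12, Mpdu1 and Kctd11. Tnfsf13 encodes APRIL, a survival factor of B cells, and Tnfsf12 encodes TWEAK, a cytokine of tissue repair, and both lie head to tail on the same strand. The FPKM of Tnfsf13 was 10.7 and 9.75 in wildtype mice, 9.03 and 9.16 in heterozygotes and 6.91 and 8.43 in homozygotes, in falling allele order. Its change per allele was -0.21 on the log2 scale (adjusted p = 0.180 from limma, standard error 0.07). The FPKM of Tnfsf12 was 24.1 and 25.1 in wildtype mice, 27.1 and 22.4 in heterozygotes and 16.4 and 20.0 in homozygotes. Only the homozygous mice were low, with a log2 difference of -0.44 both from wildtype (adjusted p = 0.241 from limma) and from heterozygous mice (unadjusted p = 0.0302, adjusted p = 0.707 from limma). These genes share exons with Tnfsfm13, an annotated transcription unit that joins them, over 60.1% of the exonic length of Tnfsf13 and 48.3% of that of Tnfsf12, so how fragments were divided among the 3 genes is uncertain. The antisense gene Tnfsf13os overlaps 13.5% of the exonic length of Tnfsf13. Its FPKM was 2.87 and 2.51 in wildtype mice, 2.92 and 2.78 in heterozygotes and 0.457 and 0.933 in homozygotes. As in Tnfsf12, only the homozygous mice were low, but the difference was larger. The log2 difference of Tnfsf13os between homozygous and wildtype mice was -1.88 (standard error 0.35, unadjusted p = 0.00193, adjusted p = 0.119 from limma). The libraries were stranded, but the strand setting of the quantification is not given in the sources used here.

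Mpdu1 lies 64.8 kb from Trp53 and encodes a protein for the use of dolichol-linked mannose in glycosylation. The FPKM of Mpdu1 was 49.0 and 55.0 in wildtype mice, 52.9 and 43.1 in heterozygotes and 40.4 and 38.2 in homozygotes. Both homozygous mice were below the other 4, and the change per allele was -0.20 on the log2 scale (standard error 0.07, adjusted p = 0.193 from limma). Kctd11, 286 kb from Trp53, encodes an adaptor of a ubiquitin ligase that restrains Hedgehog signalling. The FPKM of Kctd11 was 3.53 and 3.76 in wildtype mice, 2.43 and 2.72 in heterozygotes and 2.58 and 2.22 in homozygotes. Here the step lay between wildtype and mutant mice, with a log2 difference of -0.49 in heterozygous and -0.59 in homozygous mice (adjusted p = 0.694 and 0.213 from limma), and the mutant genotypes overlapped. The luminal epithelium markers also fell in allele order, and the part of epithelium in the values of Tnfsf13, Tnfsf12, Mpdu1 and Kctd11 was not tested.

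Promoter sequence was held in the RefSeq table of GRCm38.p6 for 32 of the 40 neighbours. The 250 bases before the annotated start are shown 5′ to 3′ for 3 of them, Tnfsf13 and Fgf11 as neighbours in allele order and Kctd11 as a neighbour outside allele order whose wildtype mice stood above all mutant mice. Tnfsf13 is shown from chr11:69685555-69685804, Fgf11 from chr11:69802281-69802530 and Kctd11 from chr11:69880986-69881235, all on the minus strand. Capitals mark any match, on either strand, to the GC box (letters GGGCGG), the CCAAT box (letters CCAAT), the TATA box (letters TATAAA), a first E-box (letters CACGTG), a second E-box (letters CAGCTG) or the p53 half-site.
Tnfsf13: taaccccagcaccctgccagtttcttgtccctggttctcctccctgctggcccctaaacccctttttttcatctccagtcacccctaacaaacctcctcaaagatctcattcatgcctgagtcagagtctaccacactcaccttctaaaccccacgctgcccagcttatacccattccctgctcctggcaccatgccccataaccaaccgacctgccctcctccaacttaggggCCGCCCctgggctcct
Fgf11: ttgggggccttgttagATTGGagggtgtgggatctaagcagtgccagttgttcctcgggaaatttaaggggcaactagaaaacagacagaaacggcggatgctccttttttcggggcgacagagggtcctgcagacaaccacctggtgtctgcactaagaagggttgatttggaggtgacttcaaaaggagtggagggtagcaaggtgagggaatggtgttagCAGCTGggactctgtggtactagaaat
Kctd11: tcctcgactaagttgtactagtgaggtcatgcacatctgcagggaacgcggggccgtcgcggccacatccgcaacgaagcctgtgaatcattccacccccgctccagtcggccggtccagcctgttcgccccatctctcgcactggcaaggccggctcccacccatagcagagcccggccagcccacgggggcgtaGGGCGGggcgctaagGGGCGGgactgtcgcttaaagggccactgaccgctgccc
In these windows, the GC box was found once before Tnfsf13 and at 2 positions before Kctd11, the CCAAT box and the second E-box once each before Fgf11, and the p53 half-site in none of the 3. Of all 32851 promoters of the table, 32.7% held the GC box, 33.9% the CCAAT box, 12.4% the TATA box, 6.02% the first and 13.0% the second E-box, and 7.13% the p53 half-site. Among the 32 neighbours, 19 held the GC box, 15 the CCAAT box, 3 the TATA box, 4 the first and 4 the second E-box, and 2 the p53 half-site. A neighbour was counted if any of its listed promoters held the letters, and some, such as Senp3 and Ybx2, have more than 1. The shares of all promoters are per promoter, so the counts cannot be set directly against them. These letters are a description of the windows and do not show binding of a factor.

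The 7 tested neighbours with roles in transcription and chromatin had none past the unadjusted threshold per allele, beside 19.6% of all tested genes, and with 7 genes a count of 0 does not set them apart. They were Polr2a, Zbtb4 (a zinc finger repressor that binds methylated DNA), Kdm6b (a demethylase of histone H3 lysine 27), Chd3 (a helicase of the NuRD complex), Phf23, Gps2 (a subunit of the NCoR complex) and Elp5 (a subunit of Elongator). Their changes per allele ran from -0.10 to 0.03 on the log2 scale, and the 95% intervals of the 7 together reached from -0.26 to 0.17. Polr2a had a mean FPKM of 32.7 ± 2.5 (SD, n = 2) in wildtype mice, 31.2 ± 1.88 (SD, n = 2) in heterozygotes and 28.7 ± 2.24 (SD, n = 2) in homozygotes. The change of Polr2a per allele was -0.10 on the log2 scale (adjusted p = 0.408 from limma), and that of Zbtb4, was 0.01 (adjusted p = 0.972 from limma). For these genes a change of 0.5 per allele on the log2 scale lies outside the intervals, while changes inside them are not excluded with 2 mice per genotype.

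The genes of RNA processing and translation had 0 of 6 past the same threshold, again beside 19.6% of all tested genes. Eif5a, which encodes the hypusine-containing translation factor, was the neighbour with the highest mean FPKM, at 377 ± 47.1 (SD, n = 2) in wildtype mice, 357 ± 46.8 (SD, n = 2) in heterozygotes and 305 ± 20.6 (SD, n = 2) in homozygotes. Eif4a1 encodes the helicase of the cap-binding complex and had a mean of 75.2 ± 18.0 (SD, n = 2) in wildtype mice and 62.7 ± 7.86 (SD, n = 2) in homozygotes. The changes per allele of Eif5a and Eif4a1 were -0.15 and -0.12 on the log2 scale, with adjusted p-values of 0.385 and 0.511 from limma. Fxr2, a relative of the fragile X gene, Senp3, a SUMO protease of the nucleolus, and Ybx2, a Y-box protein of germ cells, also belong to this group. Of 7 male germ cell genes, 4 were at 0 in every mouse, among them the protamine genes Prm1 and Prm2, while Ybx2 lay between 2.92 and 5.58 FPKM. Gabarap, a ubiquitin-like protein of autophagosomes, had 278 ± 34.2 (SD, n = 2) in wildtype mice, 301 ± 52.8 (SD, n = 2) in heterozygotes and 239 ± 27.7 (SD, n = 2) in homozygotes, with a change per allele of -0.11 (adjusted p = 0.589 from limma). Acadvl, a dehydrogenase of long-chain fatty acid oxidation, had a change per allele of 0.09 (95% interval -0.15 to 0.32, adjusted p = 0.658 from limma) and shares 42.9% of its exonic length with Dvl2 on the opposite strand.

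Of the 34 tested neighbours, 10 were given for each mouse by rule. The changes per allele of the other 24, some of them described above, ran from -0.15 (Eif5a) to 0.24 (Tmem88, a membrane inhibitor of Wnt signalling). For 22 of the 24, the 95% interval of the change per allele lay within 0.5 of 0 on the log2 scale. The exceptions were Tmem88, with an interval from -0.14 to 0.62, and Cd68, from -0.56 to 0.33. Cd68 encodes a lysosomal glycoprotein of macrophages, and its FPKM was 9.56 and 9.66 in wildtype mice, 13.1 and 9.84 in heterozygotes and 5.49 and 12.1 in homozygotes. The lowest and a high value thus came from the same genotype. Summed over 10 macrophage genes, FPKM was 168 and 163 in wildtype mice, 259 and 220 in heterozygotes and 102 and 263 in homozygotes, lowest in the same mouse 47. In homozygous against wildtype mice, 0 of the 9 tested among them passed the unadjusted threshold, beside 18.0% of all tested genes. With 9 genes, a count of 0 does not set them apart.

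Below the mean FPKM of 1, Acap1 and Asgr1 differed most between genotypes. Acap1, which encodes a GTPase-activating protein for Arf6 that is abundant in lymphocytes, had an FPKM of 0.247 and 0.351 in wildtype mice, 0.531 and 0.797 in heterozygotes and 0.993 and 0.946 in homozygotes, in rising order without overlap. Without the filter on low values, its change per allele was 0.72 (standard error 0.17, adjusted p = 0.245 from limma). Summed over 11 lymphocyte genes, FPKM was 4.93 and 5.37 in wildtype mice, 6.07 and 6.07 in heterozygotes and 6.28 and 8.41 in homozygotes, also in rising order. These sums are low, and only 1 of the 11 genes had a mean FPKM of at least 1. It did not pass the unadjusted threshold in heterozygous or homozygous against wildtype mice or per allele. The part of lymphocytes in the values of Acap1 was not tested. Asgr1, which encodes a subunit of the asialoglycoprotein receptor of liver cells, had 2.16 and 0.955 in wildtype mice, 0.819 and 1.11 in heterozygotes and 0.223 and 0.469 in homozygotes. Both homozygous mice were lowest, the other genotypes overlapped, and its change per allele without the filter was -0.93 (standard error 0.25, adjusted p = 0.263 from limma). Sox15, a transcription factor gene of the SOX family, lay between 0.325 and 1.40 FPKM with all genotypes overlapping.

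Genes farther along chromosome 11 were counted in the same way, as a description without a test. Within 1 Mb of Trp53, the neighbours included, 18 of 82 tested genes (22.0%) passed the unadjusted threshold per allele and 8 (9.76%) were in allele order. The shares were 24.0% and 8% of 25 genes at 1 to 2 Mb, 38.5% and 10.3% of 39 genes at 2 to 5 Mb, 25.2% and 9.93% of 151 genes at 5 to 10 Mb, and 20.3% and 9.31% of 870 genes farther away. On other chromosomes they were 19.4% and 8.78%. Of the 15 genes past the threshold at 2 to 5 Mb, 11 were higher and 4 were lower with more R270H alleles. The 11 included Myh1, Myh2, Myh4 and Myh8 of the skeletal muscle myosin cluster, and the 4 were Gm12328, Tax1bp3, Emc6 and Shpk. The part of muscle genes in the share at 2 to 5 Mb was not tested. Within 10 Mb of Trp53, 77 of 297 tested genes (25.9%) passed the unadjusted threshold per allele, beside 19.4% on other chromosomes. None of the 297 had an adjusted p-value under 0.05 per allele, beside 0.355% of all tested genes. The nearest gene on the chromosome that did was Trim11, at 10.6 Mb, and the others included Ccng1, a p53 target at 28.8 Mb. Between the outermost neighbours, 9 further genes were tested, of which 3 (33.3%) passed the unadjusted threshold per allele, beside 19.6% of all tested genes. Of these, 2810408A11Rik was higher and Cyb5d1 and Tnfsf13os were lower. Only 2810408A11Rik was in allele order, with an FPKM of 0.460 and 0.894 in wildtype mice, 1.61 and 1.44 in heterozygotes and 2.44 and 2.37 in homozygotes. Its change per allele was 0.87 on the log2 scale (standard error 0.18, adjusted p = 0.111 from limma).

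**Figure D4:**
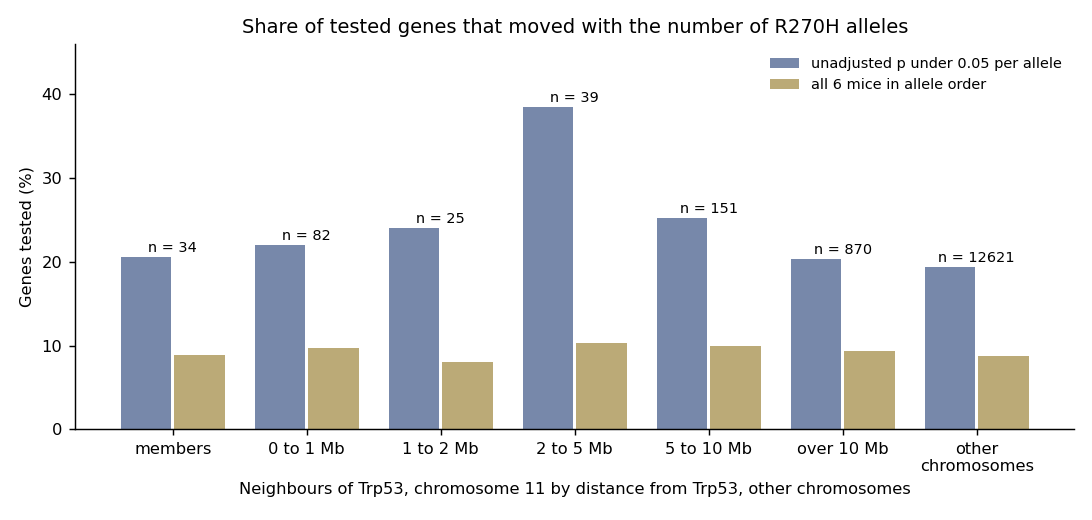
Share of tested genes in percent with an unadjusted p-value under 0.05 per R270H allele (blue) and with all 6 mice in allele order (tan), for the neighbours of Trp53, for bins of distance on chromosome 11 and for other chromosomes; n is the number of genes tested. The neighbours, at 20.6% and 8.82%, lie beside the other chromosomes at 19.4% and 8.78%.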

How the data were processed

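Processed tables of 6 mouse prostates were used, each assigned to its genotype from the labels. The authors aligned read pairs of stranded mRNA libraries to GRCm38 (mm10) with HISAT and quantified genes with Cufflinks (Cuffnorm is also named in the submitters' processing notes), and deposited gene-level FPKM, which are scaled for transcript length and for mapped fragments. Versions and annotation are not given in the sources used here. No counts are part of the values, so a test for counts was not used.

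Values were taken as log2(FPKM + 0.1) for the 13818 genes whose FPKM averaged 1 or more across the mice, and fitted with limma 3.58.1 in R 4.3.3 (eBayes with an intensity trend). A model with 3 genotypes gave the moderated F-test and the contrasts, and a model with the number of R270H alleles gave the change per allele. Because the genotypes had equal numbers of mice, the heterozygous mice do not move the change per allele, only its standard error. P-values were adjusted by Benjamini and Hochberg over all tested genes. With 2 mice per genotype, p-values rest on the spread between these few mice and on a variance that limma shares over genes. Per allele, that spread also holds how far the heterozygous mice lie from a straight line. Fold changes on this scale understate those of low genes. The fit was tested on simulated data. Positions and exon overlaps are those of GENCODE M21, which held 47305 of the 47719 identifiers and all 40 neighbours. Depth was approximated from the median of low values, inside a preset window, of genes with 1 transcript.

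The members and lists were chosen with earlier results of these data known. Values per mouse are given for neighbours in allele order, with an unadjusted p-value under 0.05 per allele or in the F-test, or among the 6 nearest to Trp53; those of Chrnb1, Cd68 and Asgr1 were added after their values were seen. Alternatives were pseudocounts of 1 and 0.01, no filter, a mean FPKM of at least 5, median scaling, quantile normalization, no intensity trend, and leaving out each mouse. Other calculations used Python 3.11.15.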

Additional observations from a re-analysis of the deposited data

How the results depend on the processing

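Under every alternative run, 0 neighbours had an adjusted p-value under 0.05 in the F-test, in any contrast or per allele. Across 256 recalculated changes of the 10 tested neighbours with values per mouse, 0 changed direction. Many of these could not change, because the filters, the intensity trend and leaving out a heterozygous mouse do not move the estimates. The 2 changes of each gene, per allele and homozygous against wildtype, are also tied to each other. The 256 are thus not separate checks. With 1 mouse left out, the number of neighbours past an unadjusted p-value of 0.05 ranged from 3 to 8 per allele, from 1 to 7 in the F-test, from 1 to 4 in heterozygous against wildtype mice, from 2 to 9 in homozygous against wildtype mice and from 0 to 2 in homozygous against heterozygous mice, and the number in allele order ranged from 3 to 9. The share of all tested genes then lay between 13.8% and 20.3% per allele, 7.29% and 15.2% in the F-test, 3.58% and 9.15% in heterozygous against wildtype, 11.7% and 19.8% in homozygous against wildtype and 1.29% and 12.2% in homozygous against heterozygous mice, and between 14.2% and 21.6% in allele order, where fewer mice are easier to order. With no filter on low values, homozygous against heterozygous mice gave 2 neighbours in place of 1, of 39 tested. Where a mouse was left out, the remaining mouse of its genotype is assumed to vary like the others. No paired analysis was possible because the labels give the genotypes no shared replicate numbers. Short genes at a low FPKM rest on few fragments, and with a median standard error of 0.08 per allele on the log2 scale, small changes were not detectable with 2 mice per genotype.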
